A study of Homo sapiens with 54 samples.

Results

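Transcripts of 8 S100 calcium-binding proteins (S100A8, S100A9, S100A12, S100P, S100A4, S100A6, S100A10 and S100A11) were followed in 9 human cell lines before and during exposure to calcitriol, the hormonal form of vitamin D. The members were taken as probe sets of Affymetrix Gene 1.0 ST arrays whose only gene symbol in the probe-to-gene table is 1 of these 8 names; each had exactly 1 such probe set, among 19460 probe sets with 1 symbol. HL60 is a promyelocytic leukaemia line and K562 an erythroid-like line from chronic myeloid leukaemia, HEP-G2 is a hepatoma line, Ag09309 and Ag09319 are fibroblast lines, and GM07019, GM07348, GM10854 and GM12878 are lymphoblastoid lines, B cells transformed by Epstein-Barr virus. Each line was sampled at 0, 8 and 36 h, with 2 arrays at each time, which made 54 arrays in 27 groups. The 0 h cultures received no agent, and untreated cultures kept for 8 or 36 h were not analysed here, so each change belongs to calcitriol and to time in culture together. HL60, K562 and HEP-G2 each stand as 1 line for their cell type. The arrays measure whole cultures, in which fewer cells of a type and less RNA per cell cannot be told apart.

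S100 proteins are small proteins with paired EF-hand motifs that change shape on binding calcium and then engage target proteins. S100A8 and S100A9 form the heterodimer calprotectin, which neutrophils and monocytes hold in large amounts and release in inflammation, and S100A12 is a related protein of granulocytes; outside the cell these proteins are known to engage the receptors TLR4 and AGER (RAGE). S100A10 pairs with annexin A2, S100A11 binds annexin A1, S100A4 binds the heavy chain of non-muscle myosin, S100A6 binds CACYBP, and S100P was first described in placenta. Calcitriol acts through the vitamin D receptor (VDR), and HL60 cells are known to mature toward monocytes when treated with it.

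Of the members, 7 lie on chromosome 1 and S100P lies on chromosome 4. In the order of protein-coding genes on chromosome 1, S100A9, S100A12 and S100A8 followed each other with 0 genes between neighbours, as did S100A10 and S100A11, while S100A6 and S100A4 stood with 1 gene between them. Promoter windows of 300 bases, from 250 before to 50 after the annotated start, were read from RefSeq (GRCh38.p14) for 8 of 8 members. Those of S100A11, S100A6 and S100P are not printed, though the levels of these genes also set lines apart below. Those of the 3 myeloid genes and of S100A4 and S100A10 are printed 5′ to 3′ on the gene's strand, with matches to the searched motifs in capitals. The windows are chr1:153391024-153391323 (minus strand) for S100A8, chr1:153357604-153357903 (plus strand) for S100A9, chr1:153375572-153375871 (minus strand) for S100A12, chr1:153545757-153546056 (minus strand) for S100A4 and chr1:151993810-151994109 (minus strand) for S100A10. S100A8 has 3 annotated windows, and the one with a TATA box just before the start is shown.
S100A8: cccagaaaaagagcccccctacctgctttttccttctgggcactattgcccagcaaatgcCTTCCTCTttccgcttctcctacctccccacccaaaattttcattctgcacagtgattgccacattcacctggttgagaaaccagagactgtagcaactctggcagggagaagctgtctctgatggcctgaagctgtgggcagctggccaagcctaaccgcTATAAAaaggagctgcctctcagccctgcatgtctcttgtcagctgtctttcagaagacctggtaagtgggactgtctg
S100A9: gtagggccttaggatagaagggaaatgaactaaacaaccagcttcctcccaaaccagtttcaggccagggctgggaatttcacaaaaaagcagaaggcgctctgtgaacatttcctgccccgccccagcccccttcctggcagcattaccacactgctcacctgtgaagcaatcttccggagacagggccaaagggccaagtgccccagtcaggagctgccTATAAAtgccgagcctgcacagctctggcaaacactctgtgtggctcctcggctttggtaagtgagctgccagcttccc
S100A12: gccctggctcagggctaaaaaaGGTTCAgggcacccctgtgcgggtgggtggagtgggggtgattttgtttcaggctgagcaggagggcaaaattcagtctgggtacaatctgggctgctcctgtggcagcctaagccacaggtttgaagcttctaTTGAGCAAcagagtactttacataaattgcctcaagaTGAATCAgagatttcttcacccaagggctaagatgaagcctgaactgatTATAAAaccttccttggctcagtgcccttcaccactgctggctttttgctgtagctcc
S100A4: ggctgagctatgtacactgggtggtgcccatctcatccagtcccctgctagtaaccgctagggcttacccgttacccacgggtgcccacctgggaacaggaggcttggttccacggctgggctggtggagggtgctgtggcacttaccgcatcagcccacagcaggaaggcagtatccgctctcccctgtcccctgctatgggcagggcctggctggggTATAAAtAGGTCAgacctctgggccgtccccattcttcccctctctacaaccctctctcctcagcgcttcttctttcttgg
S100A10: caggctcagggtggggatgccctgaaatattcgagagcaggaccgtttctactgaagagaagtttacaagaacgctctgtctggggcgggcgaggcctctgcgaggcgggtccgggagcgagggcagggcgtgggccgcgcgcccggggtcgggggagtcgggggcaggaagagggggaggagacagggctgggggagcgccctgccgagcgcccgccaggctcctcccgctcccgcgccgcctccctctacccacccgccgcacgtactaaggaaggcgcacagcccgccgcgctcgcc

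The motifs were searched on both strands as exact letters. TATAAA, the core of the TATA box, was present in at least 1 window of 5 of 8 members, S100A8, S100A9, S100A12, S100A4 and S100P, and in 11.6% of all 34796 promoter windows. S100A8 was searched in 3 windows, so counts of members and shares of windows are not quite alike. In the S100A8 window shown and in S100A9 it lay from -29 to -24 relative to the start. In S100A4 it lay from -31 to -26 and in S100P from -28 to -23, whereas in S100A12 it lay from -8 to -3. Of the other S100A8 windows, 1 held it from -126 to -121 and 1 did not hold it. AGAGGAAG, a motif of the myeloid factor PU.1, was found on the opposite strand of the S100A8 window shown, from -190 to -183, and in 4.44% of windows. TTGCNNAA, a short form of the C/EBP motif, was found in S100A12 and S100A11 (10.5% of windows), and TGANTCA, the AP-1 motif, in S100A12 alone among the members (7.73% of windows). Of the hexamers that VDR binds in pairs, GGTTCA was in the S100A12 window (8.61% of windows) and AGGTCA in the S100A4 window, where it followed the TATA box with 1 base between them (13.8% of windows). A direct repeat of these hexamers with 3 bases between, in any combination, was in 0 of 8 members and in 0.0172% of windows. The S100A10 and S100A6 windows held 0 matches to any of these letters, which says only that the letters are not in those 300 bases.

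The deposited values are log2 levels, and the array medians lay between 4.98 and 5.31. No calls of detection were used, so a level near or below those medians cannot be told from background, and a difference that involves such a level is not an exact fold. The labels number the 2 arrays of a group but do not say how the cultures were kept, so the p-values reflect the variation among these arrays, which may be technical. With 2 arrays at each time, the arrays of a line can separate between times by chance. The share of all probe sets that separate in this way was not counted. Statements that arrays of a line did not overlap between times therefore describe the arrays and are not tests. The 2 arrays of a group correlated at a median of 0.987 over probe sets. The 3 groups of lowest correlation were taken by rank, so their number was set and not found. They were Ag09319 at 8 h (0.897), HEP-G2 at 0 h (0.954) and K562 at 36 h (0.970), with K562 at 0 h next (0.979). In each, the array less like the line's other arrays is said here to stand apart from its partner. These 3 arrays were Ag09319 at 8 h replicate 2, HEP-G2 at 0 h replicate 2 and K562 at 36 h replicate 1. The titles come in 2 styles, 1 for GM07019, GM07348, GM10854, Ag09309, HL60 and K562 and another for HEP-G2, Ag09319 and GM12878, and for a single line the style and the line cannot be told apart. Defining markers matched the labelled cell types at 0 h: the 5 promyelocyte genes had a median level of 8.88 in HL60, the 4 erythroid genes measured 9.77 in K562, the 6 hepatocyte genes 10.70 in HEP-G2, the fibroblast genes 9.13 in Ag09309 and 9.50 in Ag09319, and the B cell genes 7.49 to 8.00 in the lymphoblastoid lines.

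The Ag09309 arrays at 0 h also went partly against their label. MS4A1, the B cell surface protein CD20, was at 8.15 and 8.07 in these 2 arrays, against 3.38 and 3.29 at 8 h and 3.10 and 2.85 at 36 h in the same line. In the 28 arrays of non-lymphoblastoid cultures other than these it ranged between 2.85 and 4.04, and in the lymphoblastoid arrays between 9.20 and 10.24. CD79A, a chain of the B cell receptor complex, was at 5.8 and 6.0 in them, against 4.40 to 5.48 in those 28 arrays. PAX5 was just above their range, at 6.12 and 6.23 against 4.80 to 6.11. The B cell genes CD79B (5.64 and 5.70, against 4.77 to 6.29) and CD22 (5.04 and 5.16, against 3.73 to 5.34) lay within it. The collagen gene COL1A1 was at 11.71 and 11.55, against 11.91 and 12.15 at 36 h. All 4 members that set fibroblasts apart are higher in fibroblasts than in lymphoblastoid lines, so the values of the members that rest on the Ag09309 0 h arrays are followed by values without them or by values at later times.

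**Figure D1:**
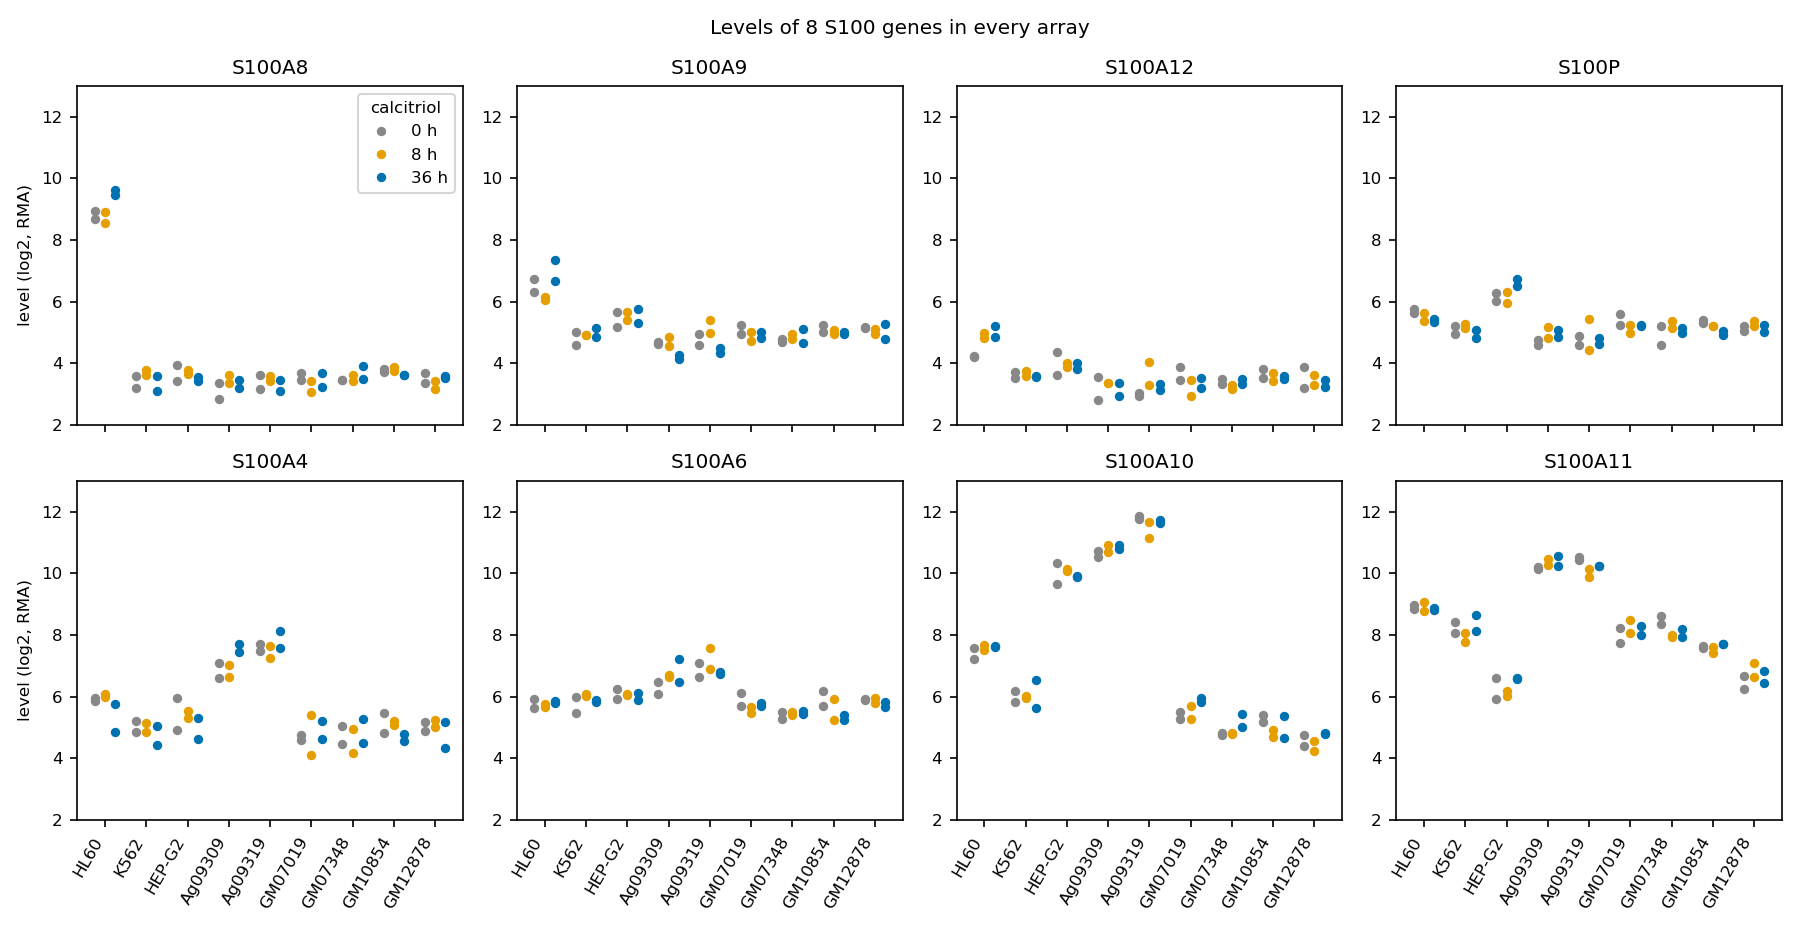
Levels (log2, RMA) of the 8 S100 genes in all 54 arrays, by cell line, with 1 point per array and colours for 0, 8 and 36 h with calcitriol. S100A8 lies at 8.54 to 9.62 in HL60 and at 2.86 to 3.94 in all other arrays, and S100A10 is highest in the fibroblast lines and HEP-G2.

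HL60 had the highest mean level of each of the 3 myeloid genes among the 9 lines. S100A8 was at 8.68 and 8.94 at 0 h, 8.54 and 8.92 at 8 h and 9.62 and 9.45 at 36 h in HL60. In the 48 arrays of the other lines S100A8 ranged between 2.86 and 3.94 with a median of 3.5, below every array median, and the HL60 arrays lay far above all of them without overlap. S100A9 lay between 6.06 and 7.34 in HL60 and between 4.14 and 5.77 in the other lines, with HEP-G2 next in order at 5.19 to 5.77. S100A12 lay between 4.19 and 5.22 in HL60 and between 2.80 and 4.36 in the others, so that its HL60 levels were near or below the array medians and the ranges overlapped. The next S100A12 level by line was again that of HEP-G2, at 3.62 to 4.36.

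Between the myeloid leukaemia lines at 0 h, limma called 5 of 8 members higher in HL60 than in K562, where 23.6% of all probe sets were called in either direction. S100A8 averaged 8.81 in HL60 and 3.4 in K562, a difference of 5.41 ± 0.21 (SE, adjusted p = 1.94e-21). S100A9 averaged 6.52 and 4.80 (1.72 ± 0.21, adjusted p = 4.2e-08), and S100A10 averaged 7.39 in HL60 and 6.0 in K562 (1.38 ± 0.23, adjusted p = 1.37e-05). The differences of S100A11 (0.67 ± 0.21, adjusted p = 0.0186) and S100P (0.63 ± 0.22, adjusted p = 0.0284) were smaller. Both calls were lost when either HL60 array at 0 h was left out, with adjusted p = 0.0508 and 0.122 for S100A11 and 0.0644 and 0.166 for S100P; S100A11 was also lost without K562 replicate 2 (0.196) and S100P without K562 replicate 1 (0.237). S100A12 (0.58 ± 0.24, adjusted p = 0.0829) and S100A4 (0.88 ± 0.37, adjusted p = 0.0852) did not pass at 0 h. With unchanged differences both passed without the 3 arrays that stood apart (adjusted p = 0.0322 and 0.0477) and with only HL60 and K562 arrays in the fit (0.0311 and 0.0291), where 7 of 8 members were called. In a comparison added after the data were seen, S100A12 was higher in HL60 at 8 h by 1.23 (adjusted p = 0.000127) and at 36 h by 1.46 (adjusted p = 8.68e-06). At those times S100P did not pass (0.31, adjusted p = 0.283 at 8 h, and 0.45, adjusted p = 0.129 at 36 h). S100A11 passed at 8 h (adjusted p = 0.00034) and not at 36 h (0.46, adjusted p = 0.107), and S100A4 likewise (1.03, adjusted p = 0.0308, and 0.56, adjusted p = 0.276). S100A8, S100A9 and S100A10 passed at both times. S100A6 differed by 0.05 (95% interval -0.41 to 0.52).

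S100P was highest in HEP-G2, where its 6 arrays lay between 5.94 and 6.74 with a median of 6.30. HL60 followed at 5.35 to 5.77, and the remaining 42 arrays lay between 4.43 and 5.59, so only the HEP-G2 range stood clear of all other lines. HEP-G2 carried the opposite pattern for the annexin-binding members: S100A10 was at 9.64 to 10.32 there, behind only the fibroblast lines, while S100A11 was at 5.92 to 6.62, the lowest mean of the 9 lines.

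S100A10, S100A11, S100A4 and S100A6 were higher in the fibroblast lines than in the lymphoblastoid lines at 0 h. In this test the line was the replicate (2 fibroblast and 4 lymphoblastoid lines), 4 of 8 members were called, all higher in fibroblasts, and 20.8% of all probe sets were called in either direction. S100A10 was at 10.72 and 10.53 in Ag09309 and at 11.87 and 11.77 in Ag09319, against 4.41 to 5.50 in the lymphoblastoid arrays, and the groups did not overlap. Its class means were 11.22 in fibroblast and 5.01 in lymphoblastoid lines, a difference of 6.21 ± 0.45 (adjusted p = 5.79e-05). S100A11 averaged 10.33 and 7.64 (2.69 ± 0.49, adjusted p = 0.00665), and S100A4 averaged 7.22 in fibroblast and 4.91 in lymphoblastoid lines (2.31 ± 0.29, adjusted p = 0.00115). S100A6 showed the smallest called difference, 6.57 in fibroblast and 5.79 in lymphoblastoid lines (0.78 ± 0.22, adjusted p = 0.0384).

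Without the Ag09309 0 h arrays the differences were 6.81 for S100A10 (adjusted p = 0.00015), 2.84 for S100A11 (0.0306), 2.68 for S100A4 (0.00203) and 1.08 for S100A6 (0.0287). These rest on Ag09319 as the 1 fibroblast line, which the fit assumes to vary like the lines of the lymphoblastoid and myeloid classes, so that the p-values carry no spread among fibroblast lines. At 36 h, where B cell markers were low in both fibroblast lines, the differences were 6.03 for S100A10 (adjusted p = 6.73e-05), 2.68 for S100A11 (0.00195), 2.90 for S100A4 (2.19e-05) and 1.24 for S100A6 (0.000691). Within the first title style, Ag09309 exceeded the mean of 3 lymphoblastoid lines by 5.47 for S100A10, 2.15 for S100A11, 1.98 for S100A4 and 0.53 for S100A6. Within the second, Ag09319 exceeded GM12878 by 7.24, 4.02, 2.55 and 0.95 for the same genes. At 0 h the S100A6 call was lost without Ag09319 (0.49, adjusted p = 0.275) and without GM07019, GM07348, GM10854 or GM12878 (adjusted p = 0.0524 to 0.0709), and S100A11 was lost without Ag09319 (2.54, adjusted p = 0.0571).

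The other 4 members were not called between fibroblast and lymphoblastoid lines. S100A8 differed by -0.33 ± 1.17 (adjusted p = 0.853), a standard error that includes the distance between HL60 and K562, since those lines share a class in this fit. S100A12 was at -0.50 ± 0.18 (adjusted p = 0.0905) and passed with the same difference when HL60 or K562 was left out (adjusted p = 0.028). S100P was at -0.49 ± 0.21 (adjusted p = 0.135) and S100A9 at -0.32 ± 0.40 (adjusted p = 0.582), beside a median of -0.139 over all probe sets. Without the Ag09309 0 h arrays these differences were -0.18 for S100A8, -0.59 for S100A12, -0.45 for S100P and -0.25 for S100A9, again none of them called.

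Among the fibroblast lines 1 of 8 members differed at 0 h, where 7.7% of probe sets were called. S100A10 averaged 10.63 in Ag09309 and 11.82 in Ag09319 (-1.19 ± 0.23, adjusted p = 0.000405). At 36 h the difference was -0.83 (adjusted p = 0.0195), and at 8 h, with the Ag09319 array that stood apart, it was -0.61 (adjusted p = 0.0929). S100A4 (-0.75 ± 0.37, adjusted p = 0.302) and S100A6 (-0.59 ± 0.23, adjusted p = 0.132) did not pass, and at 36 h they were at -0.28 and 0.08. S100A11 (-0.30), S100A8 (-0.29), S100A9 (-0.12), S100P (-0.08) and S100A12 (0.20) had adjusted p-values of 0.605 to 0.965 at 0 h.

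Over all 6 arrays of a line, S100A10 ran in the order Ag09319 (11.64 ± 0.25, SD, n = 6), Ag09309 (10.76 ± 0.15), HEP-G2 (median 9.99), HL60 (7.53 ± 0.17), K562 (6.03 ± 0.31) and GM07019 (5.59 ± 0.29), with the other lymphoblastoid lines at 4.59 to 5.04. From K562 down, each line's range overlapped that of the next in order, while each line above K562 stood clear of the next. S100A11 was level within its spread in Ag09309 (10.32 ± 0.16) and Ag09319 (10.24 ± 0.23), and again in K562 (8.18 ± 0.30), GM07348 (8.18 ± 0.27) and GM07019 (8.14 ± 0.25). GM12878 (6.65 ± 0.30) and HEP-G2 (6.32 ± 0.32) closed its order, with overlapping ranges. S100A4 was highest in Ag09319 (7.63 ± 0.29) and Ag09309 (7.08 ± 0.44), followed by HL60 (5.75 ± 0.45), and the other 6 lines lay between 4.74 and 5.28. S100A6 was at 6.96 ± 0.34 in Ag09319 and 6.60 ± 0.37 in Ag09309, with every other line between 5.44 and 6.06.

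The other S100 genes and the known partners place these levels in context. Of the 12 other S100 genes measured, S100A16, a widely expressed relative, was higher in fibroblast lines (7.77) than in lymphoblastoid lines (4.13), by 3.64 ± 0.15 (adjusted p = 2.14e-06). The remaining 11 were not called, beside 20.8% of all probe sets called. Without the Ag09309 0 h arrays the S100A16 difference was 3.66 (adjusted p = 3.16e-05). S100A3 was lower in Ag09309 (3.89) than in Ag09319 (5.09), with a difference of -1.21 ± 0.22 (adjusted p = 0.000172). At 36 h the difference was -0.24 (adjusted p = 0.67), and the cause of this shift was not tested. S100B (3.42 in HL60 and 2.72 in K562, adjusted p = 0.02) and S100Z (4.50 and 3.80, adjusted p = 0.0302) were higher in HL60 at 0 h, at levels below the array medians. At 36 h their differences were 0.06 (adjusted p = 0.886) and 0.05 (adjusted p = 0.907).

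Of 18 listed partners and receptors 15 were measured, and 6 were called higher and 1 lower in fibroblast than in lymphoblastoid lines. Of all probe sets, 20.8% were called in either direction. The list had a median of 0.51 against -0.14 over all probe sets. ANXA1, the partner of S100A11, averaged 10.73 in fibroblast and 4.36 in lymphoblastoid lines (6.37 ± 0.33, adjusted p = 8.16e-06), and ANXA2, the partner of S100A10, averaged 10.84 and 7.91 (2.92 ± 0.81, adjusted p = 0.0369). AHNAK, a giant scaffold protein that binds the complex of S100A10 and annexin A2, averaged 9.49 in fibroblast and 7.79 in lymphoblastoid lines (1.70 ± 0.18, adjusted p = 0.000427). TLR4 was higher by 2.61 ± 0.74 (adjusted p = 0.0393), ANXA11 by 0.65 (0.0265) and BSG, a surface protein reported to bind S100A9, by 0.64 (0.0118), whereas AGER was at -0.48 ± 0.14 (adjusted p = 0.0401). The standard errors include the distance between HL60 and K562, which share a class in this fit. That distance was wide for ANXA2 (4.87 and 8.60) and TLR4 (6.58 and 3.22). Without the Ag09309 0 h arrays the differences of ANXA1 (6.30, adjusted p = 0.000122), AHNAK (1.97, 0.000592) and ANXA11 (0.81, 0.0422) passed, and those of ANXA2 (2.97, 0.137), TLR4 (2.33, 0.189), BSG (0.62, 0.0728) and AGER (-0.59, 0.0756) did not. Here too Ag09319 stood alone for the fibroblasts, and the spread came from the other classes. At 36 h all of them passed except TLR4 (2.65, adjusted p = 0.0533).

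Between HL60 and K562 the partners differed in both directions, with 4 of 15 higher and 5 lower, beside 23.6% of all probe sets called. TLR4, a receptor of calprotectin, averaged 6.58 in HL60 and 3.22 in K562 (3.36 ± 0.23, adjusted p = 8.86e-15). ANXA6 (2.53, adjusted p = 2.75e-16), MYH9, the myosin heavy chain that S100A4 binds (1.68, adjusted p = 1.07e-08), and the scaffold IQGAP1 (0.65, adjusted p = 0.0281) were also higher in HL60. ANXA2 averaged 4.87 in HL60 and 8.60 in K562 (-3.73 ± 0.19, adjusted p = 4.63e-18), the opposite direction to S100A10 in the same pair of lines. MCAM (-1.11, adjusted p = 2.06e-07), ANXA1 (-0.96, 0.00171), CACYBP (-0.88, 0.0191) and CD36 (-0.67, 0.00672) were lower in HL60. CD36 was the 1 partner called between Ag09309 (4.12) and Ag09319 (2.25), by 1.86 ± 0.19 (adjusted p = 1.63e-09), and at 36 h by 2.20 (adjusted p = 3.28e-11).

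**Figure D2:**
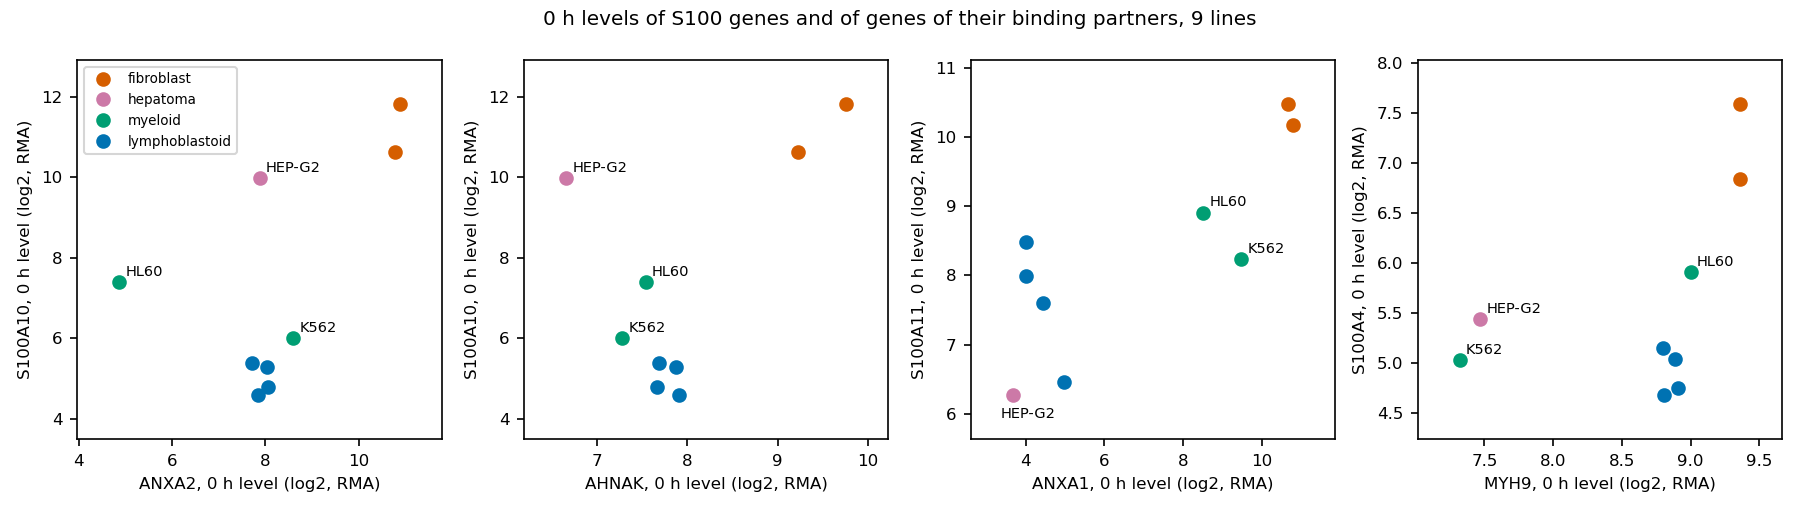
Levels at 0 h (log2, RMA) of S100A10, S100A11 and S100A4 on the vertical axes against ANXA2, AHNAK, ANXA1 and MYH9 on the horizontal axes, with 1 point per line (mean of 2 arrays) coloured by cell class. HEP-G2 combines S100A10 at 9.98 with AHNAK at 6.66, and HL60 has the lowest ANXA2 level, 4.87.

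Over the 9 lines at 0 h the Pearson correlation with its partner was 0.54 for S100A10 and ANXA2, 0.53 for S100A10 and AHNAK, 0.80 for S100A11 and ANXA1 and 0.46 for S100A4 and MYH9, given as descriptions over 9 points that fall into cell classes. S100A10 reached 9.98 in HEP-G2, where ANXA2 was at 7.88, close to its lymphoblastoid levels of 7.72 to 8.05. Across the 27 group means, S100A8, S100A9 and S100A12 correlated with each other at 0.85 to 0.91. Over the 24 groups other than HL60 the correlation was 0.54 for S100A8 and S100A9, 0.60 for S100A8 and S100A12 and 0.81 for S100A9 and S100A12. S100P, on another chromosome, correlated there at 0.78 with S100A9, 0.76 with S100A12 and 0.45 with S100A8. In those 24 groups S100A8 and S100A12 lay below the array medians, where levels cannot be told from background. Across all 27 groups, S100A4, S100A6 and S100A10 correlated at 0.84 to 0.89, S100A10 and S100A11 at 0.55 and S100P and S100A11 at -0.63.

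The genes whose levels ran most like each member over the 27 group means were named by the highest Pearson correlation, as a description. For S100A8 they were CHI3L1 (0.995), CLEC12A (0.992) and MPO (0.991), the granule peroxidase of promyelocytes. With S100A8 high in HL60 alone, these correlations mainly set HL60 against the other lines. For S100A9 they were MCEMP1 (0.954), CSF3R and ARG1 (both 0.949), and for S100A12 SIRPB2 (0.952), CSF3R (0.950), the receptor of granulocyte colony-stimulating factor, and PADI4 (0.947). S100P ran with CEACAM1 (0.935), SLC7A2 (0.926) and HPR (0.909). Without the 3 arrays that stood apart it ran instead with GPR35 (0.913), AHCY (0.910) and GDAP1L1 (0.907). S100A4 ran with SRPX (0.978), the collagen receptor MRC2 (0.964) and the pentraxin PTX3 (0.961), and S100A6 with TWIST2, CNRIP1 and TGFB1I1 (0.936 each). Without the 3 arrays S100A6 ran instead with CACNA1C (0.945), FAM229B (0.942) and EHD2 (0.938). S100A10 ran with SOCS6 (0.968), ADCY9 (0.962) and PLEKHA1 (0.960), and S100A11 with DEGS1 (0.962), SETD7 (0.916) and PEAK1 (0.915). Over the 9 groups at 0 h most of the names changed, for S100A8 to TARP and CD4 (both 0.996).

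The series asks what calcitriol does to gene expression, and in HL60 the 3 myeloid members stood at higher levels at 36 h than at 0 h without passing the test over all probe sets. S100A8 was at 9.62 and 9.45 at 36 h, against 8.68 and 8.94 at 0 h, and the arrays did not overlap; the difference was 0.72 ± 0.21 (95% interval 0.29 to 1.15, adjusted p = 0.124). S100A12 was at 5.22 and 4.86 at 36 h, against 4.23 and 4.19 at 0 h, again without overlap, with a difference of 0.83 ± 0.24 (interval 0.33 to 1.32, adjusted p = 0.127). S100A9 was at 7.34 and 6.67 at 36 h, against 6.72 and 6.31 at 0 h, with overlap and a difference of 0.49 ± 0.21 (interval 0.05 to 0.92, adjusted p = 0.562). In this comparison 0 of 8 members were called by limma, beside 0.868% of all probe sets. Members with an unadjusted p under 0.05 numbered 3, and probe sets 1407 of 19460. The calls of S100A8 and S100A12 depended on the processing. Without the 3 arrays that stood apart, none of them from HL60, the differences were the same and both passed (adjusted p = 0.0408 and 0.0268). S100A12 also passed after quantile normalization (0.84, adjusted p = 0.0413) and with only HL60 arrays in the fit (adjusted p = 0.0324), and S100A8 passed with the replicate block (adjusted p = 0.0491), although the numbers are not known to pair the cultures. The S100A12 levels in HL60 lay near or below the array medians. A filter that asked for a highest group mean of at least 6 left S100A12 out, since its highest was 5.04.

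**Figure D3:**
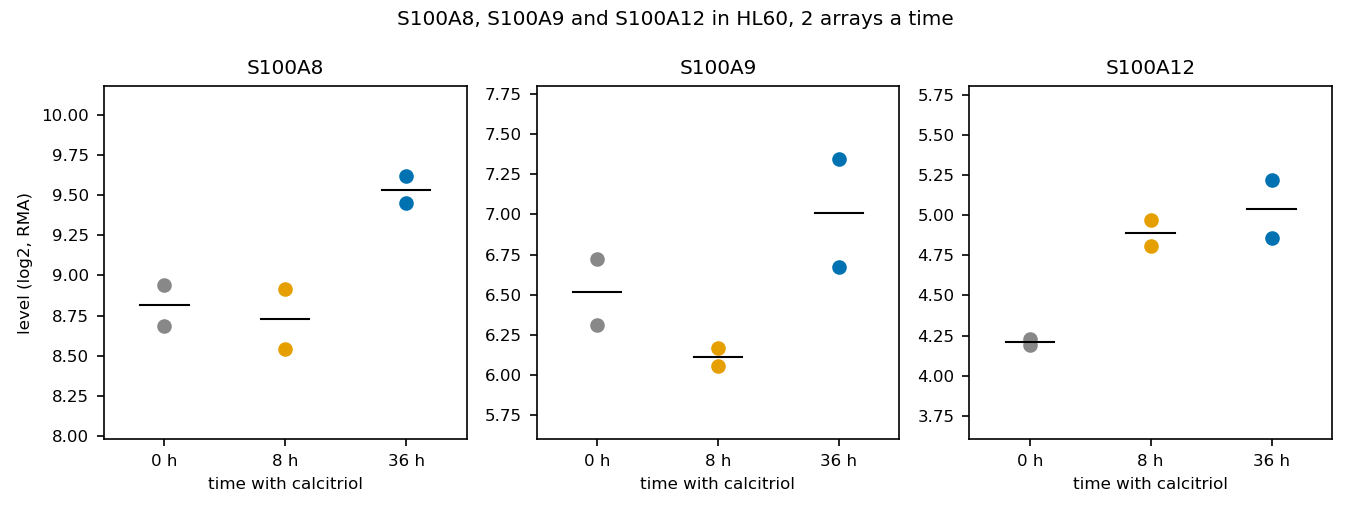
Levels (log2, RMA) of S100A8, S100A9 and S100A12 in HL60 at 0, 8 and 36 h with calcitriol, with 1 point per array and a line at the mean of 2 arrays; the vertical axes span equal ranges and do not start at 0. S100A8 and S100A9 are highest at 36 h, and S100A12 is already at 4.81 and 4.97 at 8 h.

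At 8 h S100A8 averaged 8.73, against 8.81 at 0 h (-0.08 ± 0.21), and S100A9 averaged 6.11, against 6.52 at 0 h (-0.41 ± 0.21, adjusted p = 0.998). S100A12 averaged 4.89 at 8 h, against 4.21 at 0 h (0.68 ± 0.24, adjusted p = 0.638). The differences were 0.21 for S100A10, 0.13 for S100A4, 0.02 for S100A11, -0.07 for S100A6 and -0.19 for S100P. At 8 h against 0 h, 0 of 8 members were called by limma, beside 0.236% of probe sets. An unadjusted p under 0.05 was found for 1 member and for 879 of 19460 probe sets. Between 36 and 8 h the differences were 0.90 ± 0.21 for S100A9 (adjusted p = 0.0695), 0.80 ± 0.21 for S100A8 (adjusted p = 0.127) and 0.15 ± 0.24 for S100A12. They were -0.73 ± 0.37 for S100A4 (adjusted p = 0.869) and between -0.12 and 0.12 for S100P, S100A11, S100A10 and S100A6. Again 0 members were called, beside 0.2% of probe sets. At an unadjusted p under 0.05 there were 2 members and 1143 of 19460 probe sets. The S100A9 difference between 36 and 8 h passed after quantile normalization (adjusted p = 0.0482), after centring each array (0.0466), with a filter on low values (0.0477) and without the 3 arrays that stood apart (0.0251), where S100A8 passed as well (0.0425). Without HL60 at 36 h replicate 2 it was 1.23 (adjusted p = 0.0406).

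The intervals of the other 5 members in HL60 at 36 h included 0. S100A4 was at 5.75 and 4.87 at 36 h, against 5.95 and 5.87 at 0 h (-0.60 ± 0.37, interval -1.34 to 0.15, adjusted p = 0.868). S100P was at 5.44 and 5.35 at 36 h, against 5.63 and 5.77 at 0 h (-0.31, interval -0.75 to 0.14), and S100A10 at 7.60 and 7.63, against 7.21 and 7.56 (0.23, -0.25 to 0.70). The arrays of these 3 genes did not overlap between the times either, lower at 36 h for S100A4 and S100P and higher for S100A10. Since their intervals included 0, separation of so few arrays does not by itself mark a change, for S100A8 and S100A12 as well. The arrays of the remaining genes overlapped, with differences of 0.05 for S100A6 (-0.41 to 0.52) and -0.06 for S100A11 (-0.50 to 0.37). Of the 12 other S100 genes and of the 15 partners 0 were called in HL60 at 8 or 36 h, with list medians of -0.06 and 0.09 at 36 h beside -0.02 over all probe sets.

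A check of the treatment and some markers of maturation were called in the same HL60 arrays. The check was CYP24A1, the enzyme that degrades calcitriol, which rose by 6.44 ± 0.33 at 36 h (adjusted p = 1.36e-16). CYP24A1 was also called higher at 36 h in Ag09309 (6.08), Ag09319 (5.24) and K562 (2.44), and not in HEP-G2 or any lymphoblastoid line alone. In HL60, 3 of 10 monocyte and macrophage genes rose, with 0 lower, beside 0.868% of all probe sets called. CD14, the monocyte co-receptor for endotoxin, averaged 10.08 at 36 h, against 5.98 at 0 h (adjusted p = 2.82e-15), TREM1 averaged 7.53 against 4.07 (adjusted p = 7.63e-16), and ITGAM averaged 7.95 against 6.21 (adjusted p = 4.93e-07). The monocyte list had a median change of 0.32 and a level range of 2.80 to 12.53 at 36 h, against 2.71 to 12.09 at 0 h. Of the 5 promyelocyte genes 0 were called at 36 h, with a median change of -0.46. The part of these marker changes in the levels of S100A8, S100A9 and S100A12 was not tested.

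The changes in HL60 were set against those of the other lines. For S100A8 the difference between 36 and 0 h was 0.72 in HL60 and averaged -0.02 in the other 8 lines, 0.74 ± 0.22 apart (adjusted p = 0.201). The corresponding value was 0.89 ± 0.26 for S100A12 (adjusted p = 0.145) and 0.59 ± 0.23 for S100A9 (adjusted p = 0.465). It was -0.58 ± 0.39 for S100A4, -0.33 ± 0.23 for S100P, and between -0.12 and 0.10 for S100A11, S100A6 and S100A10. By limma 0 of 8 members and 0.576% of probe sets were called. At an unadjusted p under 0.05 there were 3 members and 1288 of 19460 probe sets. S100A12 passed after quantile normalization (0.94, adjusted p = 0.0335) and without the 3 arrays that stood apart (0.85, adjusted p = 0.0458). Against K562 alone the differences of change were 0.78 ± 0.30 for S100A8 (adjusted p = 0.538), 0.88 ± 0.34 for S100A12 (adjusted p = 0.558) and 0.30 ± 0.30 for S100A9 (adjusted p = 0.899). They lay between -0.31 and 0.14 for S100A4, S100A11, S100P, S100A6 and S100A10. Here 0 members and 0.185% of probe sets were called. An unadjusted p under 0.05 was found for 2 members and for 1400 of 19460 probe sets. In K562 at 36 h the median over all probe sets was itself 0.131, with 1 array that stood apart, and without the 3 such arrays the differences of change were 0.54 for S100A8, 0.90 for S100A12 and 0.15 for S100A9, none of them called.

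**Figure D4:**
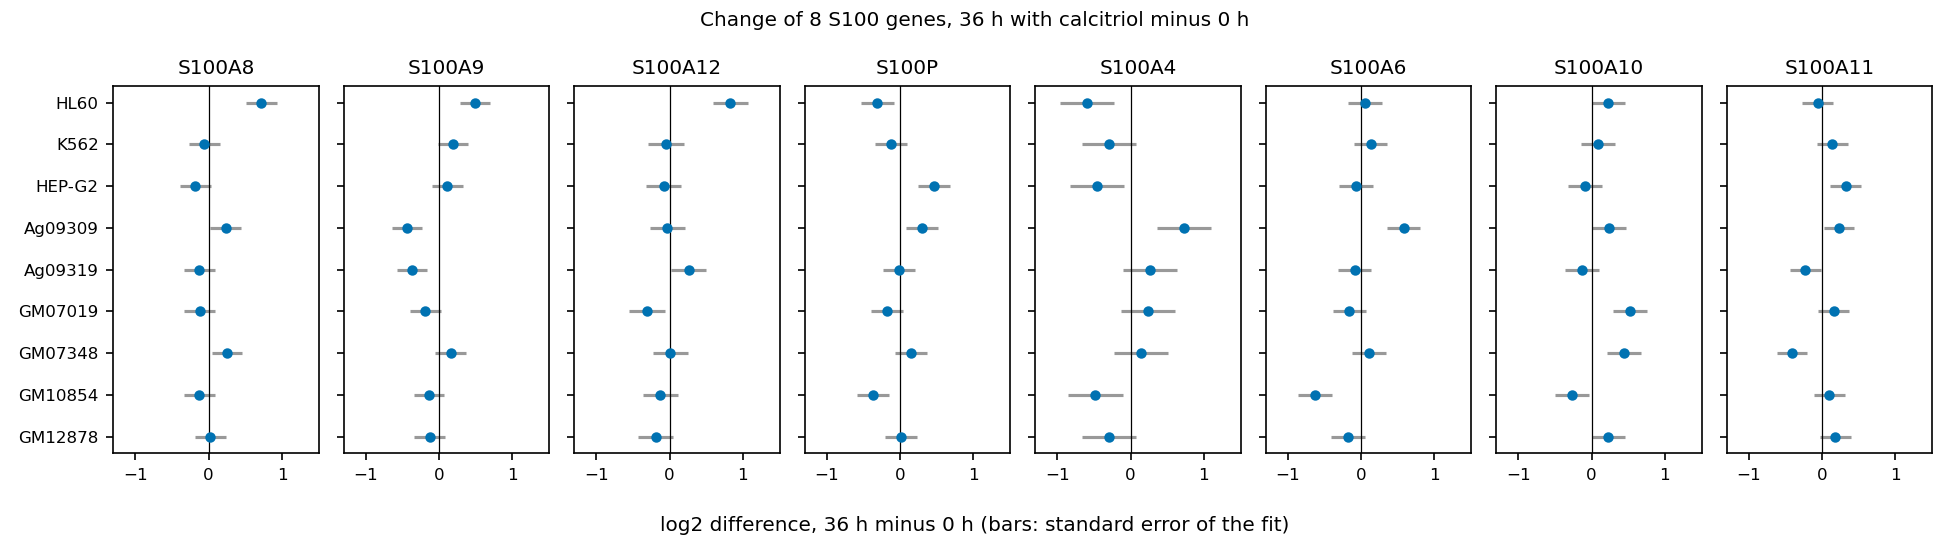
Differences between 36 h with calcitriol and 0 h (log2) of the 8 S100 genes in each of the 9 lines, with points for the difference of means of 2 arrays and bars for the standard error of the fit. HL60 has the highest values for S100A8 (0.72), S100A9 (0.49) and S100A12 (0.83), and the other lines scatter on both sides of 0.

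In the 8 other lines 0 of 64 pairs of member and line were called at 36 h, beside 1.45% of all tests of probe sets. An unadjusted p under 0.05 was found for 12976 of all 155680 tests and, at a similar share, for 5 pairs. These 5 were S100A6 in Ag09309 (0.58 ± 0.23) and in GM10854 (-0.63 ± 0.23), S100A10 in GM07019 (0.52 ± 0.23), S100P in HEP-G2 (0.46 ± 0.22) and S100A9 in Ag09309 (-0.44 ± 0.21). S100P in HEP-G2 was at 6.74 and 6.5 at 36 h, against 6.04 and 6.28 at 0 h, without overlap (adjusted p = 0.418), and the difference was 0.58 without the 0 h array that stood apart (adjusted p = 0.177). S100A10 in GM07019 was at 5.96 and 5.84 at 36 h, against 5.50 and 5.26 at 0 h (adjusted p = 1). S100A6 in GM10854 was at 5.23 and 5.40 at 36 h, against 5.70 and 6.19 at 0 h (adjusted p = 0.522). At 8 h 0 of 64 pairs were called, beside 0.233% of all tests. An unadjusted p under 0.05 was found for 10038 of all 155680 tests and, at a similar share, for 4 pairs. The largest of these was S100A12 in Ag09319 (0.70 ± 0.24, adjusted p = 0.116), where the array that stood apart read 4.05 and its partner 3.31, against 2.93 and 3.02 at 0 h. Without that array the difference was 0.33 (adjusted p = 1). The others were S100A11 in GM07348 (-0.51 ± 0.21) and in Ag09319 (-0.47 ± 0.21) and S100A10 in GM10854 (-0.49 ± 0.23).

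In the fibroblast lines 4.91% of probe sets were called at 36 h in Ag09309 and 4.49% in Ag09319, and limma called 0 of 8 members in either line. At an unadjusted p under 0.05 there were 2 members and 3139 of 19460 probe sets in Ag09309. In Ag09319 there were 0 members and 2463 probe sets. S100A4 in Ag09309 was at 7.44 and 7.69 at 36 h, against 6.59 and 7.10 at 0 h (0.73 ± 0.37, adjusted p = 0.329), and S100A6 was at 6.49 and 7.22, against 6.47 and 6.08 (adjusted p = 0.165). Set against the 8 h arrays, in which B cell markers were low, the 36 h level of S100A4 differed by 0.74 ± 0.37 (adjusted p = 0.519) that of S100A6 by 0.20 ± 0.23 (adjusted p = 0.843) and that of S100A9 by -0.49 ± 0.21 (adjusted p = 0.441), with 0 members called by limma and 0.38% of probe sets called. In Ag09319 S100A4 was at 7.58 and 8.12 at 36 h, against 7.71 and 7.48 at 0 h (0.26 ± 0.37, adjusted p = 0.922). HEP-G2 had 1.84% of probe sets called at 36 h and again 0 members. It had 1 member and 2102 of 19460 probe sets at an unadjusted p under 0.05. Its S100A11 level was 6.60 and 6.58, against 6.62 and 5.92 at 0 h (0.32 ± 0.21, adjusted p = 0.678), and -0.03 without the 0 h array that stood apart.

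Among the other S100 genes, S100A16 was the 1 called between 36 and 0 h in HL60, HEP-G2, Ag09309, Ag09319 or the means over lines. It rose in HEP-G2, with a mean of 6.68 at 36 h and 6.08 at 0 h (0.60 ± 0.16, adjusted p = 0.0464), a call lost without the 3 arrays that stood apart (0.52, adjusted p = 0.131) and without the Ag09309 0 h arrays in the fit (0.60, adjusted p = 0.0555). It fell in Ag09319, with a mean of 7.16 at 36 h and 7.80 at 0 h (-0.64 ± 0.16, adjusted p = 0.0137), and by 0.64 without the 3 arrays (adjusted p = 0.00292). The difference between these lines was not tested. The 15 partners gave 0 calls at 36 h in Ag09309, Ag09319 and HEP-G2.

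Averaged over the 9 lines, with the line as the replicate, no member's level differed with time beyond the spread between lines. At 36 h the mean differences lay between -0.08 ± 0.11 for S100A4 and 0.14 ± 0.08 for S100A10 (adjusted p = 0.441), which was positive in 6 of 9 lines. S100A9, S100A6, S100P, S100A12, S100A11 and S100A8 lay between them. By limma 0 of 8 members and 0.468% of probe sets were called. An unadjusted p under 0.05 was found for 0 members and for 2710 of 19460 probe sets. At 8 h the means lay between -0.07 ± 0.09 for S100A11 and 0.08 ± 0.10 for S100A12, with S100A10, S100A4, S100A9, S100A8, S100A6 and S100P between them. By limma 0 members were called, 0 had an unadjusted p under 0.05, and 0.0% of probe sets were called, with 542 of them at an unadjusted p under 0.05. Without the Ag09309 0 h arrays the counts of called members were again 0 at both times.

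In the 4 lymphoblastoid lines S100A10 averaged 5.24 at 36 h and 5.01 at 0 h (0.23 ± 0.11, adjusted p = 0.328), S100A6 averaged 5.58 and 5.79 (-0.21 ± 0.10, adjusted p = 0.346) and S100A12 averaged 3.42 and 3.57 (-0.16 ± 0.08, adjusted p = 0.405). The S100A10 difference was positive in GM07019 (0.52), GM07348 (0.44) and GM12878 (0.23) and negative in GM10854 (-0.27). The differences were -0.10 for S100P and S100A4, -0.07 for S100A9, 0.01 for S100A11 and 0.00 for S100A8. By limma 0 of 8 members and 1.14% of probe sets were called. An unadjusted p under 0.05 was found for 1 member and for 2860 of 19460 probe sets.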

How the data were processed

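RNA of 9 cell lines at 3 times was hybridised to 54 Affymetrix Gene 1.0 ST arrays, from 100 ng total RNA per the labels' protocols. The authors deposited log2 values per probe set, made with RMA in Affymetrix Expression Console 1.0 per the submitters' processing notes. Whether all arrays were normalized together, the calcitriol dose and the genome build are not given in the sources used here. Groups follow the cell line and time fields; the titles of GM10854 name another number, and the cell line field was used.

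Of 33297 probe sets, 19460 had 1 gene symbol and were tested with limma 3.58.1 in R 4.3.3: 1 fit of 27 groups (27 residual degrees of freedom), or, over lines, fits of group means with the line as the replicate. P-values were two-sided with Benjamini-Hochberg adjustment over all tested probe sets, at a threshold of 0.05. A log2 difference is the first named group minus the second. The fits were tested on simulated data.

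The rule names all 8 members in each comparison, but within the 8 lines other than HL60 those with an unadjusted p under 0.05 and a few others chosen after their values were seen are named and the rest counted; other S100 genes and partners are named where called, and likeness by the 3 highest correlations. Where a listed gene had more than 1 probe set, that of highest mean level stood for it. The members, lists and tests were chosen with earlier results of these data known. Differences of BR1 and BR2 arrays correlated above 0.1 for every pair of times in 3 of 9 lines, so the numbers were not taken to pair cultures. Alternatives, some added after seeing the data, changed normalization, filters, moderation, arrays, lines and the block. Promoters came from RefSeq (GRCh38.p14), and protein sequences were not used here.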

Additional observations from a re-analysis of the deposited data

Results flagged for a closer look

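Line values of each member were checked for a line far from the others, in 72 groups, and 8 stood apart; chance gives about 1 in 20 groups. At 0 h, S100A8 in HL60 was at 8.81, with the nearest of the 9 lines at 3.76 and the nearest of the 5 lines that are not lymphoblastoid at 3.69. S100A9 in HL60 at 0 h was at 6.52, with the nearest line at 5.43. The difference of S100A8 between 36 and 0 h was 0.72 in HL60, with the nearest line at 0.25. That of S100A12 was 0.83 in HL60, with the nearest line at 0.26. Among the 4 lymphoblastoid lines GM07348 stood apart in 3 values: S100A6 at 0 h was 5.38 (nearest 5.91), the difference of S100A9 between 36 and 0 h was 0.16 (nearest -0.13), and that of S100A11 was -0.41 (nearest 0.10).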

How the results depend on the processing

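Of the member differences that passed the threshold in either setting, 0 had the opposite sign in the other; differences that passed in neither did change sign in places, as S100A11 in HEP-G2 did. Across the settings 1334 member values kept their side of the threshold, 24 passed only under an alternative and 19 no longer passed under one. The count of called members was within 1.5 times in 176 of 193 recomputed counts, and the 17 others follow. Against a reported count of 0, HL60 at 36 h minus 0 h gave 1 with quantile normalization, 2 without the 3 arrays that stood apart, 1 with only HL60 arrays and 1 with the replicate block. The replicate block gave 0 in the other 9 counts in which it was fitted. HL60 at 36 h minus 8 h gave 1 with quantile normalization, with centring and with a filter on low values, 2 without the 3 arrays, and 0 to 1 when each array was left out. The change of HL60 minus that of the other 8 lines gave 1 with quantile normalization and 1 without the 3 arrays. In the 8 other lines, centring gave 1 at 36 h (S100A6 in Ag09309, 0.67, adjusted p = 0.0485), and leaving out each replicate number gave 0 to 1 at 8 h. That 1 call was S100A12 in Ag09319 (1.03, adjusted p = 0.0203) without replicate 1, which left the array that stood apart. The fibroblast minus lymphoblastoid count of 4 ranged between 2 and 5 when each line was left out, the HL60 minus K562 count of 5 between 3 and 4 when each array was left out and 7 without the 3 arrays or with only those lines, and the Ag09309 minus Ag09319 count of 1 was 0 with 8 h levels. S100A6 in fibroblast minus lymphoblastoid lines also missed the threshold without replicate 1 (0.72, adjusted p = 0.191), and S100A11 in HL60 minus K562 after centring (0.59, adjusted p = 0.0703). Some of these fits held fewer arrays or lines. Without the 3 arrays, standard errors between groups that kept 2 arrays were smaller, for S100A8 0.19 against 0.21 in the main fit. Why these calls moved was not tested.

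Counts over all probe sets moved more. HL60 at 36 h minus 0 h had 169 calls, 383 without the 3 arrays and 78 to 94 when each HL60 array was left out; at 36 h minus 8 h it had 39, 113 and 6 to 12. The change of HL60 minus that of the other 8 lines had 112 calls, 263 without the 3 arrays and 193 with quantile normalization. The 8 other lines together had 2252 calls at 36 h and 1249 without the Ag09309 0 h arrays, and 362 and 62 at 8 h. Leaving out those 2 arrays, and using later levels, were chosen after seeing the data. The mean of 9 lines at 36 h had 91 calls, 428 with the replicate block and 29 in the first title style; the 4 lymphoblastoid lines had 221, 421 and 117. Fibroblast minus lymphoblastoid lines had 4057 calls, 1925 without Ag09319 and 1470 in the first style. The number of arrays, and low levels for S100A12, limit the precision.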
